A study of Gallus gallus with 10 samples.

Results

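The collagens measured here are the chains whose gene symbols have the form COL, a number, A and a number. Every probe set of the Affymetrix Chicken Genome Array whose annotation gives a single symbol of that form was taken, whatever its signal. This gave 121 probe sets for 41 genes, out of 38439 probe sets tested and 13009 genes with a symbol. Of these genes, 10 had 1 probe set and COL1A2 had the most, 8. The symbols COL5A3, COL6A4, COL6A5 and COL11A2 had no probe set with a single symbol and were not analysed here.

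The tissue was abdominal fat of 10 male broilers of the Arbor Acres breed, 49 days (7 weeks) after hatching. Of these, 5 belonged to a fat line and 5 to a lean line, which come from one grandsire line and were selected in opposite directions for abdominal fat and plasma very low density lipoprotein. All birds ate the same corn and soybean diet, and no treatment was given. By the paper, the birds were weighed after a fast and then slaughtered. The birds were chosen for the highest and the lowest share of abdominal fat, so line and that choice cannot be told apart. One array was hybridised per bird, and the birds are named by line and by the replicate number of the labels. A signal is the deposited linear array value, and it depends on the probes as well as on the RNA, so signals of different genes are described but not ranked as RNA amounts.

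Collagens are triple helices built from 3 chains, which are hydroxylated and folded in the endoplasmic reticulum, secreted, trimmed and cross-linked. Fibrillar collagens form the cables of connective tissue, and type IV collagen forms the sheet of the basement membrane. Fat cells are each wrapped in a basement membrane, and type VI collagen, which forms beaded filaments, is known as an abundant collagen of mammalian fat. The FACIT collagens sit on the surface of fibrils, and the remaining classes form other networks, anchor skin, or span the cell membrane.

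The whole arrays set the following frame. FABP4, a lipid carrier that marks fat cells, had a mean signal of 50076. Of 7 fat cell markers, 4 were higher and 1 lower in the fat line at an unadjusted limma p under 0.05. The shares of all genes in those directions were 3.33% and 4.6%, and 0 of the 7 passed after adjustment. Markers of other tissues varied between birds. The 6 measured skeletal muscle markers had their highest summed signals in lean line 5 (85848), lean line 3 (45232) and fat line 2 (27282), against 678 to 7333 in the other birds. The 6 smooth muscle and pericyte markers summed to 40317 in lean line 4 and 20725 in lean line 1, and to 6715 to 12681 in the rest. The arrays were scanned on 3 days, with fat line 5 and lean line 4 on day 1, lean line 1 and 2 on day 2, and the others on day 3. Days 1 and 2 used scanner 1 and day 3 used scanner 2, so line was unbalanced by scanner as well. Comparisons within scan days are thus also within scanners. The ratio of 3' to 5' signal of the actin control was 2.28 to 3.09 on scanner 1 and 1.55 to 2.05 on scanner 2. That of GAPDH was split in the same way. The part of these ratios in the collagen values was not tested. Lean line 4 had an interrupted wash by its log, and fat line 4 had a median signal of 276.2, against 185.8 to 234.2 in the other arrays. Whole tissue was measured, so a lower signal from fewer cells of a type cannot be told apart from less RNA per cell.

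Collagen genes lay both among the brightest and among the dim probe sets of the array. The highest 1% of all probe sets, which begins at a mean signal of 9750, held 14 collagen probe sets of 8 genes. These were the fibrillar COL1A1, COL1A2, COL3A1 and COL5A1, the basement membrane chain COL4A2, and the type VI chains COL6A1, COL6A2 and COL6A3. The highest 5% held 12 collagen genes, the 4 added genes being COL5A2, COL4A1, COL18A1 and COL28A1. At the other end, 12 genes had their brightest probe set at or below the median of all probe sets. Among them were COL9A1, COL9A2, COL9A3 and COL10A1, chains best known from cartilage, and COL7A1, the anchoring fibril chain of skin. COL2A1 and COL11A1, also known from cartilage, lay above that median, with mean signals of 281 and 689. Of the 6 measured cartilage markers, 2 were above the median of all probe sets, COMP with a mean signal of 6313 and ACAN with 247. SOX9 and MATN1 had mean signals of 23.2 and 79.7. Of the 6, ACAN and SNORC were higher in the fat line at an unadjusted limma p under 0.05, against 3.33% of all genes. After adjustment 0 passed. The other 4 had a log2 difference between fat and lean line below 0, and the median of the 6 was -0.47.

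**Figure D1:**
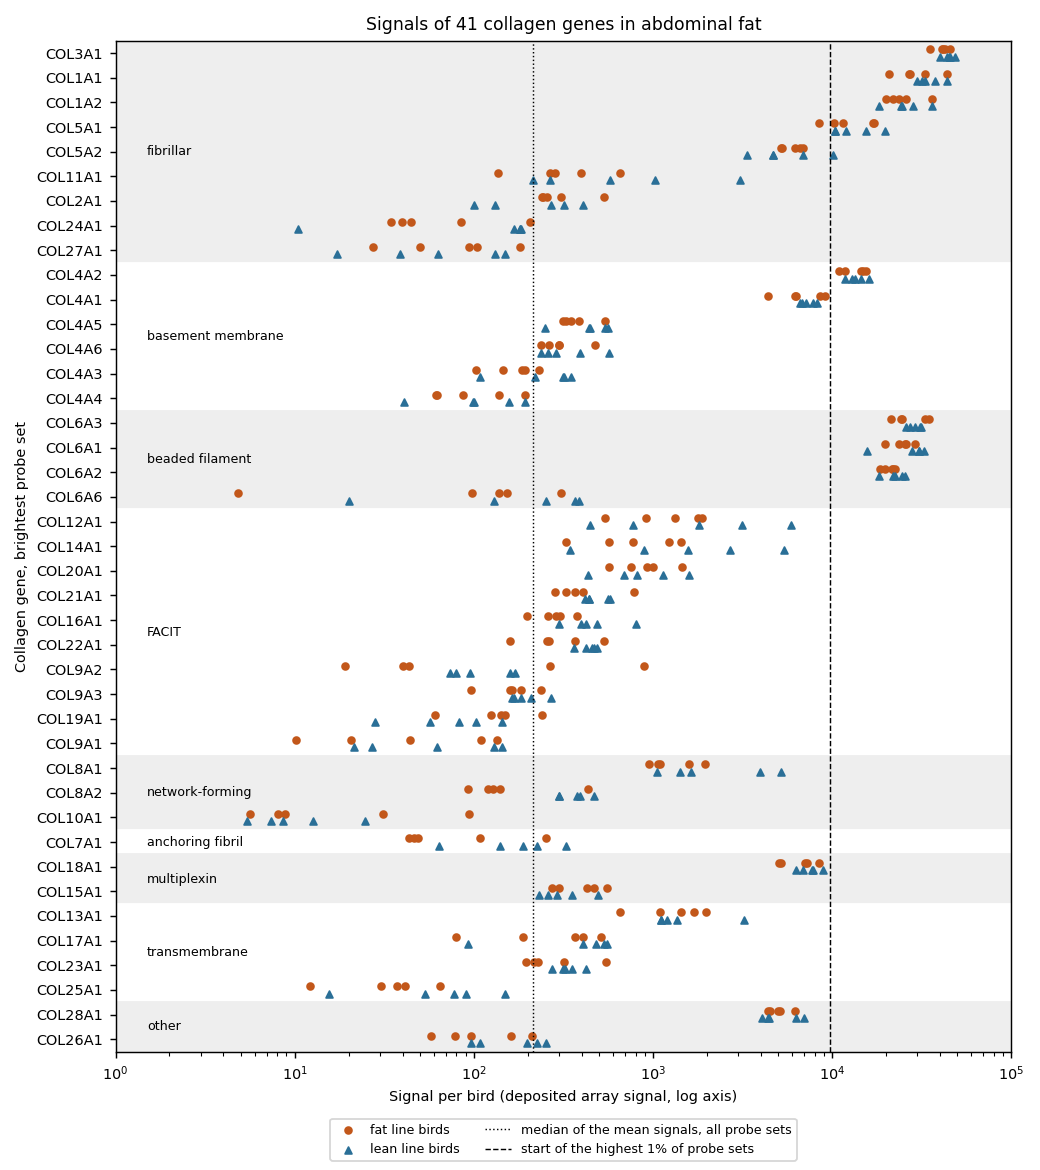
Signal of the brightest probe set of each of 41 collagen genes in each of 10 birds, on a log axis, with genes grouped by class. Circles are the 5 fat line birds and triangles the 5 lean line birds. The dotted line is the median of all probe sets (214.6) and the dashed line the start of the highest 1% (9750), and in every gene the symbols of the lines overlap.

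Among the fibrillar collagens, COL3A1, the chain of the reticular fibres, had nearly the same signal in every bird by its brightest probe set. The highest signals of the 10 arrays were 44732 to 59868, so this probe set lay near the top of the scale. It read 40895, 45754, 35333, 41944 and 42683 in fat line 1 to 5, and 43823, 44851, 45310, 48661 and 40285 in lean line 1 to 5. Its SD over the 10 birds was 0.13 on the log2 scale, which was lower than in all but 3.7% of probe sets of similar signal. The second brightest COL3A1 probe set, of mean signal 28628, was about as steady, with an SD of 0.14. Dimmer COL3A1 probe sets spread further. That of mean signal 10858 read 8168 to 16961 (SD 0.39 on the log2 scale), with lean line 5 and fat line 2 highest, and that of mean signal 1147 read 444.6 to 2177 (SD 0.60).

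COL1A1, the first chain of type I collagen, spread further, with 26893, 43886, 20897, 33052 and 27301 in fat line 1 to 5. In lean line 1 to 5 it read 29734, 37570, 33188, 31672 and 43735. Fat line 2 and lean line 5 were the highest birds and fat line 3 the lowest, and the lines overlapped. The log2 difference of COL1A1 between fat and lean line was -0.24 ± 0.19 (SE, n = 5 per line), with a limma adjusted p of 0.829. It was -0.38 ± 0.18 without fat line 2, -0.12 without fat line 3 and -0.16 without lean line 5.

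COL1A2, the partner chain of type I, had the same pair of birds at the top. It read 23584, 36037, 20076, 26040 and 21904 in fat line 1 to 5, and 24203, 28199, 18349, 24540 and 36121 in lean line 1 to 5. Here lean line 3 was the lowest bird. COL5A1, a chain of type V, which sits inside type I fibrils and sets their width, read 11458, 17117, 10274, 16880 and 8494 in the fat line. In the lean line COL5A1 read 10398, 15445, 10458, 12048 and 19673, so that lean line 5 was again the highest bird. Its type V partner COL5A2 ranged from 3351 in lean line 3 to 10099 in lean line 5, with 5220, 6596, 6182, 5260 and 6888 in the fat line, and 4693, 4690 and 6859 in lean line 1, 2 and 4. The fat line lay within the range of the lean line for COL5A2.

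The remaining fibrillar chains were far dimmer. COL11A1, a fibrillar chain known from cartilage and from forming fibrils, had a mean signal of 689 ± 874 (SD, n = 10), set by 1 bird. It reached 3057 in lean line 5 and 1032 in lean line 4, and 137.2 to 659.2 in the other birds. COL2A1, the main fibrillar chain of cartilage, had 281 ± 125 (SD, n = 10), and COL24A1 and COL27A1 had 114 ± 77.3 and 85.9 ± 55.7, both under the median of all probe sets.

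Of the basement membrane chains, COL4A1 and COL4A2, which assemble into the type IV molecule of most tissues, were bright. COL4A1 read 9129, 6268, 8593, 4393 and 6242 in fat line 1 to 5, and 6827, 8221, 7875, 7167 and 6616 in lean line 1 to 5. The fat line held both the highest bird, fat line 1, and the lowest, fat line 4, and the lean line lay between them. COL4A2 read 14846, 11772, 14595, 10947 and 15390 in the fat line, and 11882, 14532, 16187, 13016 and 13389 in the lean line. Fat line 4 was the lowest bird again, and the lines overlapped. The log2 differences were -0.13 ± 0.18 for COL4A1 and -0.04 ± 0.14 for COL4A2 (SE, n = 5 per line). The other type IV chains, which serve special membranes such as that of the kidney filter, had mean signals of 113 (COL4A4) to 416 (COL4A5).

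The type VI chains COL6A1, COL6A2 and COL6A3, which join into 1 molecule, all lay in the highest 1%. COL6A1 read 25770, 29242, 25523, 19817 and 23775 in fat line 1 to 5, and 30576, 32661, 15726, 28104 and 30446 in lean line 1 to 5. In 3 of the lean line birds COL6A1 was above every fat line bird, and lean line 3 was the lowest of all. This brightest COL6A1 probe set is of a type that may also hybridise to similar transcripts, and a second one, of mean signal 20103, had a log2 difference of 0.06. COL6A2 read 21539, 21931, 18580, 19814 and 22574 in the fat line, and 22003, 24458, 18219, 25552 and 22444 in the lean line. COL6A2 was steady, with an SD of 0.16 on the log2 scale, lower than all but 10.9% of probe sets of similar signal. COL6A3, the largest chain, read 21341, 33094, 24456, 34843 and 24311 in the fat line, and 25824, 31015, 28897, 31331 and 27438 in the lean line. The fat line was split, with fat line 2 and 4 above every lean line bird and fat line 1, 3 and 5 below all of them. The fourth measured chain, COL6A6, was dim, with a mean of 186 ± 137 (SD, n = 10).

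The FACIT chains COL12A1 and COL14A1, which bind fibrils in tendon and other dense tissue, varied widely between birds. COL12A1 read 538.3, 1890, 919.7, 1797 and 1326 in fat line 1 to 5, and 3126, 1819, 443.9, 776.8 and 5893 in lean line 1 to 5. COL14A1 read 327.2, 1237, 570.1, 1435 and 776.9 in the fat line, and 2679, 888.3, 345.3, 1569 and 5404 in the lean line. In both genes lean line 5 was highest, lean line 1 came next, and fat line 1 and lean line 3 were lowest. The SD over birds on the log2 scale was 1.15 for COL12A1 and 1.27 for COL14A1, above 99.3% and 99.1% of probe sets of similar signal. The log2 difference was -0.47 ± 0.56 for COL12A1 and -0.95 ± 0.58 for COL14A1 (SE, n = 5 per line), with limma adjusted p of 0.9 and 0.769. Single birds decided much of both values. COL12A1 had -0.01 without lean line 5 and -0.94 without lean line 3, and -0.16 with scan day as a block, and COL14A1 had -0.48 and -1.48 without the same birds. Averaged over the 5 liver markers, lean line 1 and 5 were also high, at 3.82 and 3.06 above the mean on the log2 scale. The other birds lay between -1.68 and 0.34. Of the 5 markers, APOA1 had its highest signal in lean line 3, at 39215, against 14445 in lean line 1 and 17783 in lean line 5. All 5 had a lower mean in the fat line, where 56.1% of all genes had a log2 difference below 0. At an unadjusted limma p under 0.05, 3 of the 5 were lower, against 4.6% of all genes, and 0 passed after adjustment. Albumin (ALB), the defining one, read 26026 in lean line 1, 12726 in lean line 5 and 83.8 to 2068 elsewhere, and its part in these collagen values was not tested.

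Of the multiplexins, which lie beside basement membranes, COL18A1, whose end fragment is endostatin, was bright and COL15A1 was not. COL18A1 read 7046, 5169, 7226, 5041 and 8467 in the fat line, and 6313, 7748, 6926, 8870 and 7793 in the lean line. COL15A1 read 466.8, 429.3, 274.2, 556 and 299.3 in the fat line, and 260.1, 292.8, 232, 493.9 and 353.3 in the lean line. In both genes the lines overlapped, with log2 differences of -0.21 ± 0.16 and 0.31 ± 0.28 (SE, n = 5 per line). COL28A1, known in mouse beside nerve cells, was bright, with 4065 to 6961 by its brightest probe set. Its other probe sets had mean signals of 1649 and 686.

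The question of the design was whether the lines differ. With limma, 0 of 121 collagen probe sets had an adjusted p under 0.05 (0% of all probe sets did), the lowest adjusted p being 0.46. Significance Analysis of Microarrays (SAM) with a delta of 0.8 called 0 collagen probe sets and 0 of all probe sets. The study's own SAM at that delta did report genes in both directions. It left out a fat line bird and the probe sets never called present. Here all 10 birds and all 38439 probe sets were used, so these screens are not alike. At an unadjusted limma p under 0.05 there were 10 of 121, which is 8.26%, against 7.38% of all probe sets. Of these, 8 were lower in the fat line, where 3.99% of all probe sets passed in that direction, and 2 were higher, where 3.38% passed. This direction rested on lean line 5, without which 3 of 8 were lower. With arrays scaled to the same median 3 of 6 were lower, and with quantile normalization 4 of 6. With scan day as a block 9 of 9 were lower, and with a block for replicate number 10 of 12. Counting each gene by its brightest probe set, 2 of 41 genes reached that p (COL8A2 and COL16A1), against 7.93% of all genes. The lines did not overlap in 0 of 121 probe sets, against 1.39% of all.

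**Figure D2:**
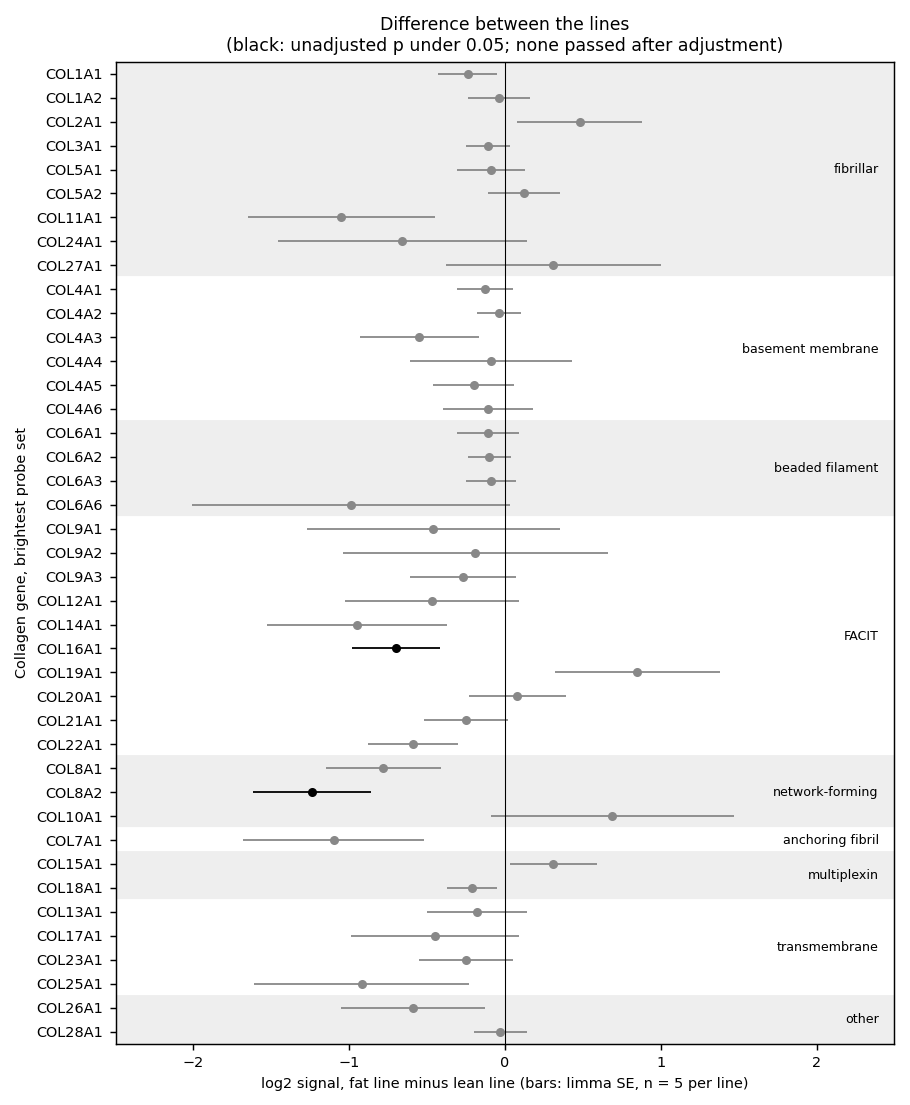
Log2 signal in the fat line minus that in the lean line for the brightest probe set of each of 41 collagen genes, by class, with the limma SE (n = 5 per line). Points in black are COL8A2 and COL16A1, which had an unadjusted p under 0.05, and 34 of the 41 points lie below 0.

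Most collagen genes had a lower mean log2 signal in the fat line, though 0 of them passed after adjustment. The difference was below 0 in 34 of 41 genes, or 82.9%, against 56.1% of all genes, and its median was -0.20 against -0.05 over all genes. Taking every probe set, not the brightest of each gene, the difference was below 0 in 83 of 121 collagen probe sets. Over the whole array it was below 0 in 21411 of 38439. With quantile normalization 70.7% of collagen genes were below 0 (53.1% of all), and with arrays scaled to the same median 68.3% (43.8% of all). Without lean line 5 the count was 29 of 41 genes (70.7%, against 56.6% of all genes). Without lean line 5 and fat line 2 it was 28 (68.3%, against 56.1%), and without lean line 3 as well it was 30 (73.2%, against 55.5%). Within scan day 3 (4 fat line birds, 2 lean line birds) the count was 29 (70.7%, against 54.0%).

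By class, the median log2 difference was -0.09 in the 9 fibrillar genes, -0.12 in the 6 basement membrane genes and -0.11 in the 4 type VI genes. It was -0.36 in the 10 FACIT genes, -0.35 in the 4 transmembrane genes and -0.78 in the 3 network-forming genes. COL7A1 alone had -1.10 ± 0.58 (SE, n = 5 per line) at a mean signal of 144. The 2 multiplexins had the 1 median above 0, at 0.05, and the 2 genes outside these classes had -0.31. The median SE was taken over all probe sets of a class, not over the brightest of each gene alone. It was 0.21 for type VI, 0.32 for basement membrane, 0.38 for network-forming and 0.39 for fibrillar probe sets. For multiplexin, FACIT and transmembrane probe sets it was 0.44, 0.59 and 0.62.

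The type VIII chains, which form hexagonal networks in vessel walls and in the membrane behind the cornea, had the collagen probe set of smallest p. COL8A2 read 120.8, 127.5, 92.5, 139.5 and 433.1 in fat line 1 to 5, and 394.3, 299.3, 376, 300.4 and 470.9 in lean line 1 to 5. In 4 of 5 fat line birds it lay below every lean line bird, and fat line 5 lay within the lean line. The log2 difference was -1.24 ± 0.38 (SE, n = 5 per line), with an unadjusted limma p of 0.0054, an adjusted p of 0.46 and an exact permutation p of 0.0397 (two-sided). COL8A1 by its brightest probe set read 1090, 1943, 945.4, 1588 and 1062 in the fat line, and 1639, 1425, 1055, 5162 and 3982 in the lean line. Lean line 4 and 5 were far above the other birds, which overlapped between the lines.

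The log2 difference of COL8A1 was -0.78 ± 0.37 by that probe set (limma adjusted p 0.684). A second had -1.05 ± 0.39 (SE, n = 5 per line), an unadjusted p of 0.017 and an adjusted p of 0.576, and the last had -0.36 ± 0.34. Without lean line 4 the second had -0.67. MYH11, ACTG2, TAGLN and DES, of the smooth muscle and pericyte markers, had their highest signal in lean line 4, as did COL8A1. ACTA2 and PDGFRB had theirs in fat line 2, at 129.7 and 3692. Of the 6 markers measured, 5 were lower in the mean of the fat line, 4 at an unadjusted limma p under 0.05 and 0 after adjustment. At that unadjusted p 4.6% of all genes were lower. The summed signal of the 6 was 6715 to 9720 in the fat line and 8770 to 40317 in the lean line. The highest sum was in lean line 4, the array of the interrupted wash, where COL8A1 was also highest. Lean line 5, next in COL8A1, had a sum of 10314. Lean line 1 had the second highest sum, 20725, but 1639 for COL8A1, below the 1943 of fat line 2. The part of these markers in the difference was not tested.

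COL16A1, a FACIT chain known from skin and smooth muscle, read 261.3, 302.9, 199.5, 377.3 and 287.8 in the fat line, and 425.4, 299.2, 397, 486.4 and 802.9 in the lean line. Lean line 2 was the 1 lean line bird within the range of the fat line. The log2 difference was -0.70 ± 0.28 (SE, n = 5 per line), with an unadjusted limma p of 0.0237 and an adjusted p of 0.609. The other COL16A1 probe sets, of mean signal 174 and 24.9, both had a log2 difference of -0.02.

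The remaining probe sets with an unadjusted p under 0.05 were not the brightest of their genes. For COL28A1, the probe set of mean signal 1649 read 1815, 2445, 3084, 1512 and 1691 in the fat line, and 947.5, 549.9, 2024, 767.5 and 1654 in the lean line. The log2 difference was 0.94 ± 0.31 (SE, n = 5 per line; limma adjusted p 0.518), and the brightest COL28A1 probe set had -0.03 ± 0.17. With scan day as a block the former was 0.47 ± 0.27 (limma adjusted p 0.888), and on scan day 3 alone 0.22. Both signs were thus found within this gene, with the brightest probe set within its SE of 0. For COL4A2, a probe set of mean signal 1807 had 1677 to 3335 in the fat line and 1542, 2424 and 2146 in lean line 1, 3 and 5, but 9.3 in lean line 2 and 60.7 in lean line 4. Those 2 birds made up its log2 difference of 2.75 ± 1.2 (limma adjusted p 0.656), which was 1.45 without lean line 2 and -0.13 on scan day 3 alone, a day that holds neither. The same 2 birds were not low by the other probe set of the same sequence cluster, which had 7215 to 13808 in all 10 birds.

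The other 5 were lower in the fat line. COL11A1 had 2, with log2 differences of -1.50 ± 0.61 and -1.07 ± 0.50, and in both lean line 5 was the highest bird, with 303.9 and 962.8. Without that bird the second was -0.65. COL14A1 had 2 dim ones, with -1.80 ± 0.79 and -1.78 ± 0.83 at mean signals of 83.3 and 190, which became -0.51 and -1.14 with signals under 100 set to 100. A COL2A1 probe set had -1.01 ± 0.46 at a mean signal of 156, while the brightest COL2A1 probe set had 0.48 ± 0.40. All errors are SE with n = 5 per line, and the limma adjusted p of these 5 was 0.633 to 0.674.

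**Figure D3:**
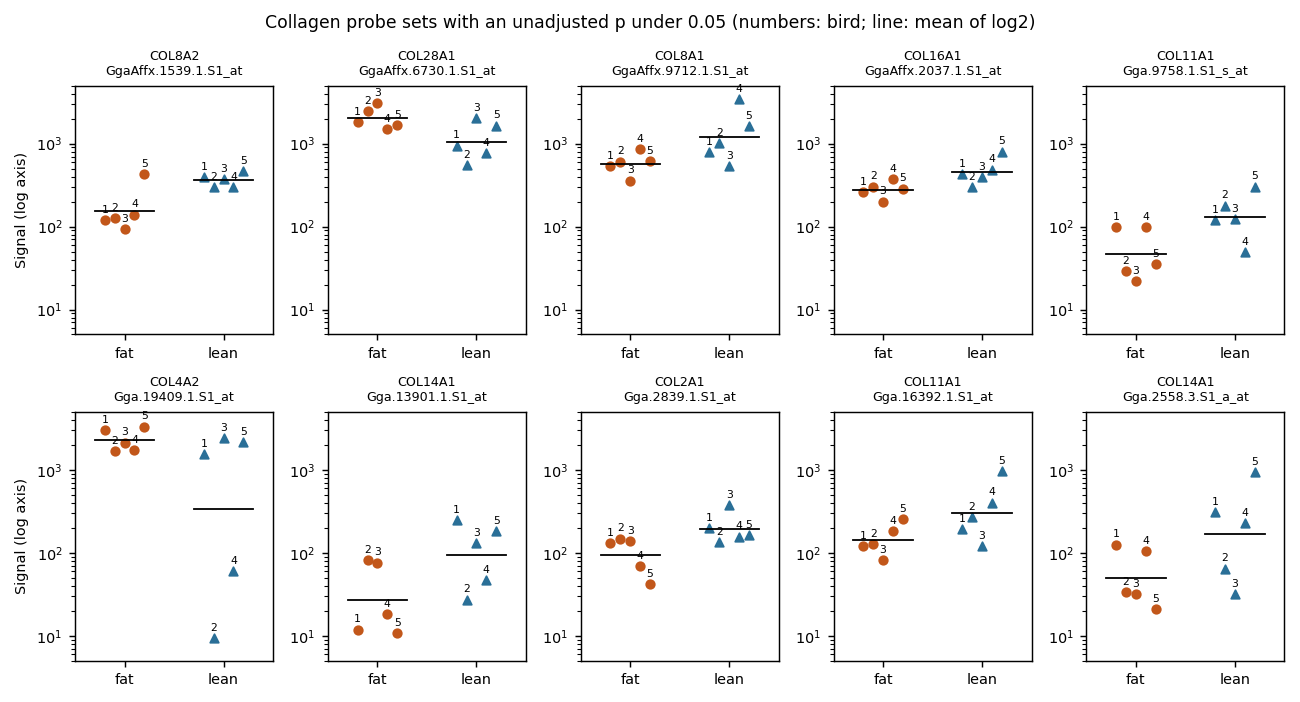
Signal per bird, on a log axis, of the 10 collagen probe sets with an unadjusted limma p under 0.05, with fat line birds as circles, lean line birds as triangles and the replicate number beside each. The bar is the mean of the log2 signals, and the lines overlap in all 10 panels, by fat line 5 in COL8A2 and by lean line 3 and 5 in COL4A2, where lean line 2 and 4 lie far below the rest.

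Probe sets of the same gene did not always report the same birds as high. Of 16 genes with at least 2 probe sets among the 19219 with the highest mean of log2 signals, the line difference had both signs in 10. Differences near 0 are among these, such as -0.10 and 0.11 in COL6A2. The share over all genes is not given here, so this count is not particular to collagens. The mean Pearson r over the 10 birds between probe sets of a gene was 0.88 for COL12A1, 0.80 for COL11A1, 0.77 for COL8A1 and 0.73 for COL1A2. It was 0.29 for COL3A1 and 0.36 for COL4A2, and below 0 in COL6A2, COL13A1 and COL23A1. In COL6A2 the r of -0.69 was between the bright probe set and 1 of mean signal 468. These correlations describe the probe sets and share the same 10 arrays.

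Covariation between birds was compared over 14 pairs of chains, with Benjamini-Hochberg adjustment over the 14 and permutation tests of 100000 resamples (two-sided). The pair of highest correlation was COL12A1 and COL14A1, with Pearson r 0.89 (p = 0.00061, adjusted p = 0.0085) and Spearman rho 0.77 (permutation p = 0.0127, adjusted p = 0.166). Leaving out the 2 birds farthest from the median of COL12A1 gave r 0.75 (adjusted permutation p = 0.369), and leaving out lean line 5 alone gave 0.82 (adjusted permutation p = 0.0831). The call at an adjusted p under 0.05 thus rests on lean line 5, while r stayed high without it. Within lines, as deviations from each line's mean, r was 0.90, and as deviations from the mean of each scan day it was 0.92.

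COL1A1 and COL1A2, the chains of type I collagen, had r 0.80 (permutation p = 0.006, adjusted p = 0.0417) and rho 0.72 (permutation p = 0.0237, adjusted p = 0.166). In the plot of the pairs, 9 birds lie close to a line and lean line 3 lies below it, with COL1A2 low for its COL1A1. Without lean line 3, r was 0.96 (adjusted permutation p = 0.00042). Without fat line 2 or without lean line 5 it was 0.73, with adjusted permutation p of 0.106 and 0.0831, and without both it was 0.52. Leaving out any other single bird gave 0.79 to 0.80, with an adjusted permutation p above 0.05 each time. Leaving out the 2 birds farthest from the COL1A1 median gave 0.71 (adjusted permutation p = 0.369), so among single birds the adjusted call outlasted the loss of lean line 3 alone. Without lean line 3, lean line 5 and fat line 2 together, r was 0.97 (adjusted permutation p = 0.0081; Spearman adjusted p = 0.0414). Within lines r was 0.84, and within scan days 0.79.

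Chains that assemble together in the other types were less uniform. COL4A1 and COL4A2, which are neighbours on the chromosome with no protein-coding gene between them on the GRCg7b assembly, had r 0.71 (permutation p = 0.016, adjusted p = 0.0567). COL6A1 and COL6A2, also neighbours, had r 0.73 (permutation p = 0.0162, adjusted p = 0.0567). As deviations from scan day means both had r 0.77 (adjusted permutation p = 0.0232), a test that does not count the removed means. COL4A1 and COL4A2 depended on fat line 4, without which r was 0.51, and COL6A1 and COL6A2 on lean line 3, without which it was 0.57.

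COL6A3, the third chain of the type VI molecule, had r -0.07 to COL6A1 and 0.15 to COL6A2. In the plot of COL6A1 against COL6A3, fat line 4 has the highest COL6A3 and the lowest COL6A1 of the fat line. COL4A5 and COL4A6, neighbours as well, had r 0.05, and COL5A1 and COL5A2 had 0.38. Across classes, r was -0.35 for COL1A1 and COL4A1, 0.23 for COL1A1 and COL6A1, and 0.20 for COL4A1 and COL6A1. None of these had an adjusted p under 0.05. By Spearman rho 0 of 14 pairs had an adjusted p under 0.05 on the deposited scale, against 1 with quantile normalization, 1 as deviations from line means and 4 as deviations from scan day means.

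**Figure D4:**
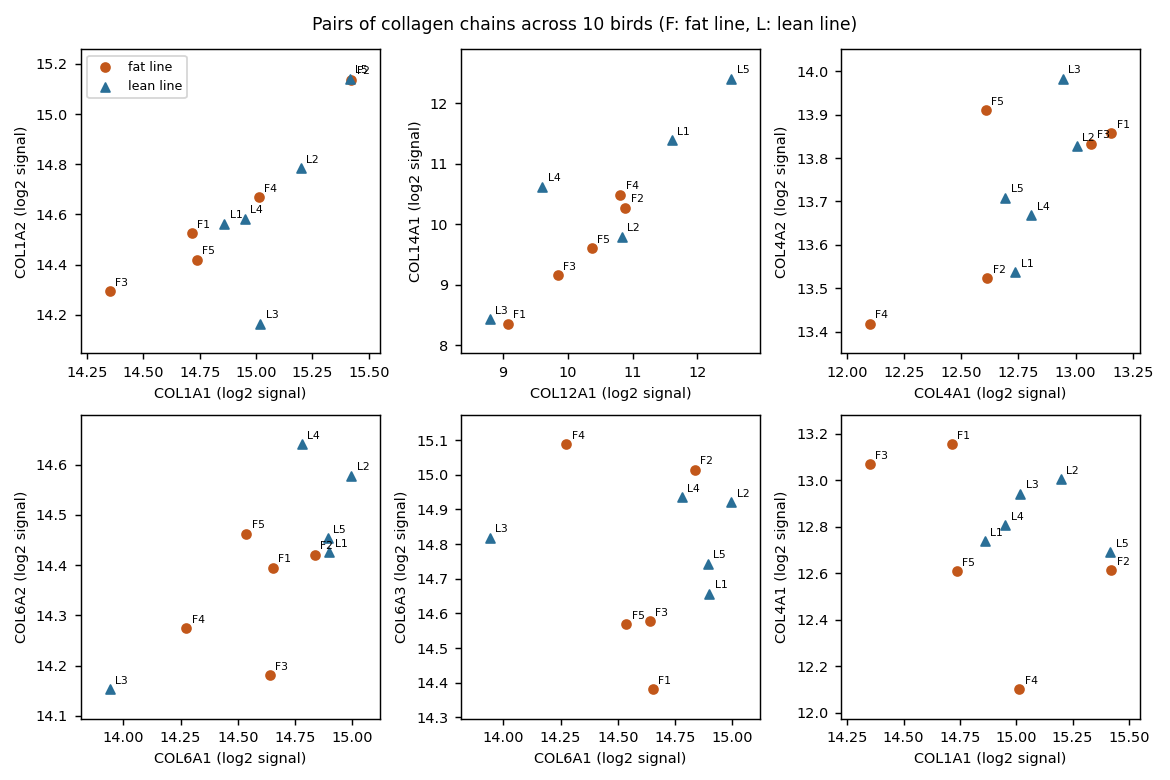
Log2 signals of 6 pairs of collagen chains in the 10 birds, fat line as circles (F) and lean line as triangles (L) with the replicate number. COL1A1 and COL1A2 (r 0.80) and COL12A1 and COL14A1 (r 0.89) rise together, with fat line 2 and lean line 5 at the top of the first and lean line 5 at the top of the second, whereas COL6A1 and COL6A3 (r -0.07) do not.

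Pairwise r was also averaged by class over the 29 collagen genes among those 19219 probe sets. The mean r was 0.40 over the 21 pairs of fibrillar genes and 0.44 over the 15 pairs of FACIT genes. It was 0.37 between fibrillar and FACIT genes and 0.37 between fibrillar and type VI genes. Over the 10 pairs of basement membrane genes it was 0.02, and between fibrillar and basement membrane genes -0.08. Over all pairs of those 19219 probe sets it was 0.00. These means describe the 10 birds and carry no test, since the genes share the same arrays.

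The fibrillar mean was 0.43 within lines and 0.47 within scan days. Without lean line 5 and fat line 2 it was 0.30, and without lean line 3 too it remained at 0.30. The mean of the basement membrane genes lay between -0.03 and 0.05 under those same changes. The value for that class hides a contrast within it, as COL4A1 and COL4A2 had 0.71 and COL4A2 and COL4A6 had -0.80.

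**Figure D5:**
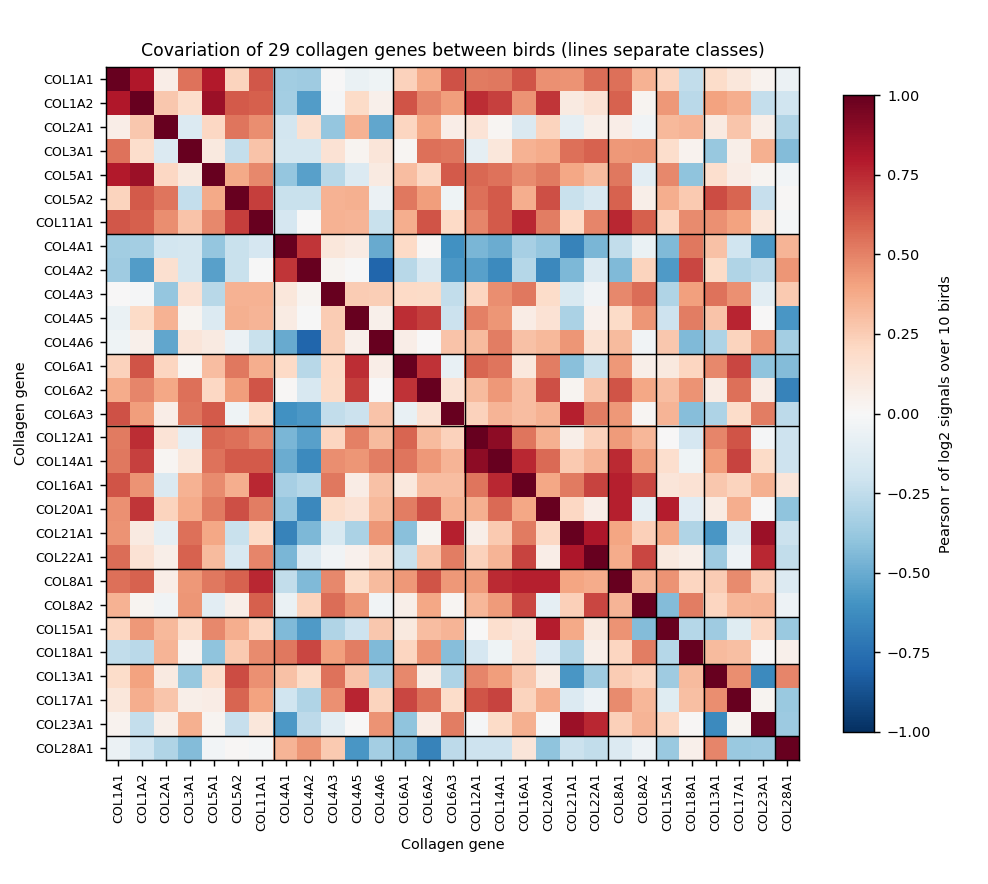
Pearson r of log2 signals over 10 birds for every pair of 29 collagen genes, ordered by class, with black lines between classes. Fibrillar and FACIT genes form mostly red blocks (mean r 0.40 and 0.44), while the COL4A1 and COL4A2 rows are mostly blue against both.

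Some birds were high or low in many of these genes. Lean line 5 had the highest signal in 9 of the 29 genes and the lowest in 0, and lean line 4 the highest in 6 and the lowest in 0. Fat line 3 and lean line 3 were each the lowest in 8 genes. On the log2 scale, the 7 fibrillar genes of lean line 5 lay on average 0.78 above their means, and its 6 FACIT genes 1.06 above. Its 5 basement membrane genes lay 0.11 above. The medians of these classes in lean line 5 were 0.51, 0.78 and -0.02, and COL11A1 was highest there, at 3057.

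Lean line 5 was also the bird of highest skeletal muscle markers, 4.51 above their mean on the log2 scale. Lean line 3, with 3.89, had a mean deviation of -0.44 in fibrillar genes and of -0.52 in fibroblast and stroma markers. Fat line 2, with 2.73, had fibrillar genes 0.21 above. Fibroblast and stroma markers lay 0.25 above their mean in lean line 5 and 0.34 above in fat line 2. Lean line 1 had 0.23 in those markers and -0.45 in fibrillar genes. The median of its fibrillar genes was -0.29, and the dim COL2A1 had its lowest signal, 100.5, in that bird. The part of muscle and of stroma in these values was not tested.

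The genes most like COL1A1 over the 10 birds, among 9264 genes in the probe sets of highest mean signal and leaving out collagens, were PCDH18, KAZALD1, DACT1, CLIC5 and WNT5B, with Pearson r of 0.86 to 0.88. Of the collagens, COL1A2 (0.80) and COL5A1 (0.79) were above 99.9% of the genes compared. For COL4A1 they were STARD3 and PDCD7 (0.96), SLC44A1 (0.92), C3orf18 and IPO7 (0.91), and COL4A2 (0.71) was at the 97.3 percentile. These r values were picked as the highest of many over 10 birds.

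Genes that make, trim, cross-link and bind collagen were given by 6 lists holding 53 measured genes. With limma 0 of 53 had an adjusted p under 0.05, and 4 were lower and 4 higher at an unadjusted p under 0.05, against 4.6% and 3.33% of all genes. P4HB, a subunit of prolyl hydroxylase, SERPINH1, the collagen chaperone HSP47, and ITGB1, the beta chain of collagen-binding integrins, lay in the highest 1%. The smallest p was that of FKBP7, a prolyl isomerase of the endoplasmic reticulum. Its lines did not overlap, as in 1.39% of all probe sets. It read 2872, 2776, 2058, 2194 and 2037 in the fat line, and 3758, 3716, 3070, 3244 and 5893 in the lean line. Its log2 difference was -0.70 ± 0.18 (SE, n = 5 per line), with an unadjusted limma p of 0.00157 and an adjusted p of 0.341. The exact permutation p was 0.00794, the smallest this design allows, which any gene without overlap of the lines has.

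Next came 2 laminin chains of the basement membrane. LAMB2 was at 790 ± 120 in the fat line and 1142 ± 228 in the lean line (SD, n = 5), a log2 difference of -0.52 with a limma adjusted p of 0.531. LAMA1 had 158 ± 92.1 and 51.3 ± 22.9 (SD, n = 5), a log2 difference of 1.57 with a limma adjusted p of 0.531, below the median of all probe sets. Among the 7 genes of cross-linking, 3 were below 0 and the median log2 difference was 0.04. Among the 14 measured basement membrane partners, 11 were below 0, with a median of -0.22. Of all genes 56.1% were below 0, with a median of -0.05.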

How the data were processed

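Abdominal fat RNA of 10 birds was measured, 1 array each. The deposited values are linear intensity signals that the authors made with MAS5, per the labels, scaled per array and without detection calls. The 96 control probe sets were left out. The lines were compared on log2 signals by limma 3.58.1 (R 4.3.3), a two-sided moderated test with a trend on intensity, and p was adjusted by Benjamini-Hochberg over 38439 probe sets at a threshold of 0.05. SAM used a delta of 0.8 and 100 permutations, and the exact permutation test all 252 labellings of 5 birds against 5. Both fits were run on simulated data as a check of the code. In the SAM run the added change was larger than any collagen difference here. That run thus does not show whether differences of the size seen here would be called. Correlations and exact tests ran in Python 3.11.15 with scipy 1.17.1, numpy 2.4.6 and pandas 2.3.3. Symbols come from the array's annotation table, and all 41 collagen symbols were found among the genes of the RefSeq annotation of GRCg7b, used for neighbours alone. The brightest probe set of a gene, by the mean of its log2 signals, stands for that gene. Precision is limited by the number of arrays.

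The members, gene lists and pairs were chosen with earlier results of these data known. Values per bird are given for 14 chains that stand for the main classes and for each collagen probe set with an unadjusted p under 0.05 or lines that do not overlap. Of other pathway genes, the 3 of smallest p are named, and the 5 genes most like COL1A1 and COL4A1. COL11A1, COL8A1 and COL28A1 by their brightest probe sets, and P4HB, SERPINH1 and ITGB1, were named after their values were seen. The study's own screen left out a fat line bird, which the labels do not tie to a replicate number, so all 10 birds were kept. Replicate numbers did not pair the birds. The labels give separate birds as replicates. The alternatives were other scaling, floors and filters, a block for scan day or for replicate number, and birds left out. Scan day 3 alone, the loss of the birds of high muscle markers, and the loss of single birds other than fat line 4 from correlations were added after the data were seen.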

Additional observations from a re-analysis of the deposited data

Results flagged for a closer look

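Of 48 groups of 5 birds (the named collagen probe sets in each line), 2 had a bird that stood apart from the other 4 by Dixon's test on the log2 signals, and chance flags about 1 in 20 groups. In COL6A1, lean line 3 had a signal of 15726, against 28104.4 to 32661.3 in the other lean line birds. In COL8A2, fat line 5 had 433.1, against 92.5 to 139.5 in the other fat line birds.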

How the results depend on the processing

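No collagen probe set had a limma adjusted p under 0.05 under any alternative, and the median log2 difference of collagen genes kept its sign. SAM, which was run on the log2 signals of all 10 birds alone, called 0 collagen probe sets at its delta. The count at an unadjusted p under 0.05, 10 of 121, was 6 with quantile normalization (7.27% of all probe sets), 6 with arrays scaled to the same median (6.59%), 5 with signals under 100 set to 100 (6.78%), 5 of 63 when only the 19219 probe sets with the highest mean were tested (8.62%), 6 on scan day 3 alone (5.41%), and 5 to 15 with 1 bird left out (lowest without fat line 3, with 5.49% of all, highest without lean line 3, with 7.14%). With the replicate block it was 12 (6.74%), and same-numbered birds had correlations of -0.14 to 0.06. The count without overlap of the lines, 0, was 0 to 3 with 1 bird left out (3 without fat line 4, where 4.05% of all probe sets had no overlap), 3 without lean line 5 and fat line 2 (3.96% of all), 8 without lean line 3 as well (7.65%) and 11 on scan day 3 alone (13%). The COL4A2 probe set of mean signal 1807, at 2.75 over all birds, turned to -0.13 on scan day 3 alone.

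The r of COL1A1 and COL1A2 was 0.73 to 0.96 with 1 bird left out, 0.71 without the 2 birds farthest from the median, 0.52 without lean line 5 and fat line 2, and 0.97 without lean line 3 too. That of COL12A1 and COL14A1 was 0.82 to 0.98 with 1 bird left out, 0.75 without the farthest 2, 0.81 without lean line 5 and fat line 2 and 0.75 without lean line 3 too. Among uncalled pairs, r changed sign in some settings. Without the farthest 2 birds, r was -0.18 for COL5A1 and COL5A2, 0.64 for COL6A1 and COL6A3, -0.10 for COL1A1 and COL3A1, -0.22 for COL4A1 and COL6A1, and 0.12 for COL3A1 and COL4A1. With quantile normalization it was 0.08 for COL6A1 and COL6A3, -0.18 for COL4A1 and COL6A1 and 0.04 for COL3A1 and COL4A1. With 1 bird left out it ran from -0.18 to 0.16 for COL6A1 and COL6A3, -0.20 to 0.55 for COL4A1 and COL6A1, -0.57 to 0.04 for COL15A1 and COL18A1, -0.32 to 0.24 for COL4A5 and COL4A6 and -0.38 to 0.15 for COL3A1 and COL4A1. Without lean line 5 and fat line 2 it was -0.18 for COL5A1 and COL5A2 and -0.04 for COL1A1 and COL6A1, and without lean line 3 too, -0.52 for COL5A1 and COL5A2 and -0.20 for COL4A5 and COL4A6. By scan day deviations COL4A5 and COL4A6 had -0.18. The causes were not tested.

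Low signals carry array background, so a dim collagen is not shown to be present, and 5 birds a line leave differences of the size seen here within the spread.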
